A study of Homo sapiens with 4 samples.

Results

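HSD17B2 and 9 other genes that handle estrogen, namely the hydroxysteroid dehydrogenase genes HSD17B1, HSD17B4, HSD17B6, HSD17B8, HSD17B10, HSD17B11, HSD17B12 and HSD17B14 and the steroid sulfatase gene STS, were followed in estrogen-deprived lobular breast cancer cells. They were matched by symbol, and all 10 were found among 60675 genes in the tables. The set was chosen by counts and TPM, a level corrected for transcript length and library total. These compared HER2 L755S with HER2 WT libraries within each replicate number. CPM stands for counts scaled to the library total with TMM factors. Of 122 genes called higher in HER2 L755S (edgeR, adjusted p under 0.05, all 4 libraries), 103 had at least 5 CPM there. By log2 fold change HSD17B2 ranked 2 of these 103, a rank from the contrast that chose it. The other 9 were taken as its relatives. Differences of the 10 genes between the lines are therefore given as a description, with no p-value.

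The cells were MM134, an estrogen receptor positive line from an invasive lobular carcinoma. One line, HER2 WT (wild-type libraries 1 and 2), carried the wild-type receptor kinase encoded by ERBB2, and the other, HER2 L755S (L755S libraries 1 and 2), carried a substitution in its kinase domain. Both were grown to 70% confluence and then kept for 7 days in phenol red free medium with 5% charcoal-stripped serum, so no estrogen-replete group was at hand. Each line had 2 libraries, numbered 1 and 2. How the HER2 forms were brought into the cells, whether a line is 1 clone, and what a number stands for are not given in the sources used here.

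Estradiol, the potent estrogen, and estrone, the weak one, differ by a hydroxyl or a keto group at a single carbon. Hydroxysteroid dehydrogenases interconvert them, most working in a preferred direction in the cell: HSD17B1 reduces estrone to estradiol while HSD17B2 oxidizes estradiol to estrone. Estrone also circulates as a sulfate, which STS hydrolyses back to the free steroid and sulfotransferases make. Several members are named for this reaction but do other work in most cells, such as beta-oxidation in peroxisomes (HSD17B4) or mitochondria (HSD17B10) and fatty acid elongation (HSD17B12).

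Total expected counts were 27423259 to 31088398 per library. The summed level of 9 luminal markers (keratins, EPCAM, ESR1 and luminal factors) was 6515 to 8977 TPM. Basal, endothelial and leukocyte marker lists summed to at most 1.63 TPM. The fibroblast list summed to 14.8 to 37.6 TPM, nearly all of it COL1A1, with THY1 at 0 in all 4 libraries. COL1A2 had 0 and 6 counts in wild-type and L755S libraries 1, and 45 and 49 counts in wild-type and L755S libraries 2. COL3A1 had 1 and 0 counts in the former and 53 and 32 counts in the latter. COL1A1 went the other way, lower in the number 2 libraries by a log2 fold change of -0.97. ERBB2 stood at 1934 and 1936 CPM in wild-type libraries 1 and 2 and at 2443 and 1203 CPM in L755S libraries 1 and 2, a level that does not check a substitution. Mitochondrial transcripts took 4.03% to 4.40% of the counts in the number 1 libraries and 8.83% to 13.5% in the number 2 libraries. ESR1, the estrogen receptor gene, stood at 176 and 282 CPM in wild-type libraries 1 and 2 and at 64.7 and 122 CPM in L755S libraries 1 and 2 (log2 -1.29, edgeR, adjusted p = 0.15). The labels do not state separate cultures for the libraries, so each p-value reflects library spread that may be technical.

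HSD17B2 (ENSG00000086696, GRCh38 chromosome 16, 82035004 to 82098534, plus strand) had the largest difference between the lines among the 8 fitted members. It had 25 and 15 counts in wild-type libraries 1 and 2, and 2126 and 452 counts in L755S libraries 1 and 2. On the TPM scale these levels were 0.95 and 0.72 in the wild-type and 81.6 and 16.3 in HER2 L755S. The groups did not overlap, and more RNA per cell cannot be told apart from more cells with the transcript. The gap between the 2 HER2 L755S libraries was itself wide. Mean levels were 0.835 ± 0.163 TPM for wild-type and 49.0 ± 46.2 TPM for L755S cells (SD, n = 2). In the fit of all 4 libraries the log2 fold change of HER2 L755S over HER2 WT was 6.12 (SE 0.70), with 6.52 between the number 1 libraries and 5.05 between the number 2 libraries. Of all tested genes 1.69% passed an adjusted p of 0.05 (edgeR) between the lines in either direction and 0.738% passed as higher. Because that contrast chose HSD17B2, no p-value from it is given for the members.

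HSD17B1 (chromosome 17, 42549214 to 42555213), the reductase that makes estradiol, was low in all libraries. Its level was 3.13 and 1.63 TPM in wild-type libraries 1 and 2 and 2.00 and 1.53 TPM in L755S libraries 1 and 2. The groups overlapped. HSD17B1 had a log2 fold change of -0.18 (SE 0.40), made up of -0.39 for number 1 and 0.03 for number 2. The gene overlaps an antisense transcript, AC067852.2, which had 309 to 662 counts against 127 to 184 of HSD17B1. Without a stated strand setting, reads of these 2 genes cannot be told apart. Expected counts of HSD17B1 were not whole in any library. The length assigned to it was 2616 and 4117 bases in wild-type libraries 1 and 2 and 3011 and 3602 bases in L755S libraries 1 and 2. These lengths move its TPM relative to its counts. In CPM it stood at 5.68 and 5.03 in the wild-type and at 4.34 and 5.14 in the L755S libraries.

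Set against each other on the TPM scale, the oxidizing HSD17B2 and the reducing HSD17B1 stood in opposite order in the lines. The ratio of HSD17B2 to HSD17B1 was 0.304 and 0.442 in wild-type libraries 1 and 2. It was 40.8 and 10.7 in L755S libraries 1 and 2. The limits given above for the reads and assigned length of HSD17B1 hold for each of these ratios. Of these 2 transcripts, that of HSD17B1 was thus the more abundant in both HER2 WT libraries and that of HSD17B2 in both HER2 L755S libraries. The ratio leaves out HSD17B7, which also reduces estrone and was more abundant than HSD17B1 in each library. In HER2 L755S 2, HSD17B7 stood at 14.7 TPM and HSD17B2 at 16.3 TPM. Since HSD17B1 overlapped between the lines, the shift in the ratio is that of HSD17B2, whose values chose the gene set. Messenger RNA levels do not give enzyme activity or steroid concentrations, which were not measured here.

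**Figure D1:**
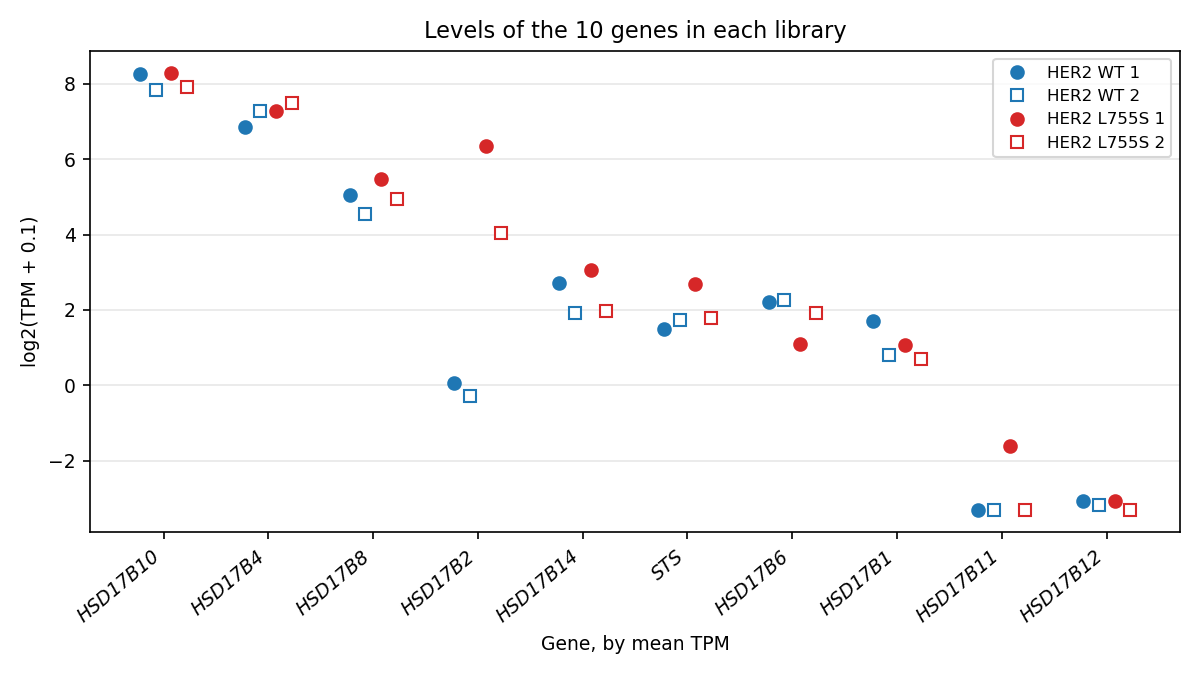
TPM of the 10 genes in each library on a log2(TPM + 0.1) axis, ordered by mean TPM, with 1 symbol per library. HSD17B2 is below 1 TPM in both HER2 WT libraries and at 81.6 and 16.3 TPM in the HER2 L755S libraries, while HSD17B11 and HSD17B12 lie at the bottom in all 4.

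Ordered by mean TPM over the 4 libraries, HSD17B10 stood highest, followed by HSD17B4, HSD17B8, HSD17B2, HSD17B14, STS, HSD17B6, HSD17B1, HSD17B11 and HSD17B12. The ranges of HSD17B10, HSD17B4 and HSD17B8 did not overlap each other. HSD17B2 has no fixed place in this order: it was the lowest of the 8 fitted members in both wild-type libraries, and in L755S library 1 it lay above HSD17B8. From HSD17B14 to HSD17B1 the ranges of direct neighbours in the order overlapped, while those of HSD17B14 and HSD17B1 did not. HSD17B10 and HSD17B4 together made up 89.2% and 91.2% of the summed TPM of the 10 genes in wild-type libraries 1 and 2, and 76.4% and 87.7% in L755S libraries 1 and 2. HSD17B2 made up 0.202% and 0.171% of that sum in the wild-type and 13.3% and 3.40% in HER2 L755S.

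The abundant members are multifunctional enzymes of lipid oxidation. HSD17B10 (chromosome X, 53431258 to 53434373) is a mitochondrial dehydrogenase and a subunit of mitochondrial RNase P. It stood at 303.5 and 228 TPM in wild-type libraries 1 and 2 and at 314 and 242 TPM in L755S libraries 1 and 2. In each line the number 1 library was the higher one. The groups overlapped in TPM and did not overlap in CPM, at 168 and 130 in wild-type libraries 1 and 2 and 178 and 175 in L755S libraries 1 and 2. From counts, HSD17B10 had a log2 fold change of 0.24 (SE 0.30). HSD17B4 (chromosome 5, 119452443 to 119637199), the peroxisomal multifunctional enzyme, stood at 116 and 156 TPM in the wild-type and at 155 and 179 TPM in the L755S libraries. The groups of HSD17B4 overlapped in TPM and in CPM, with a log2 fold change of 0.24 (SE 0.31). The mean transcript length assigned to HSD17B4 was 1396 bases in HER2 L755S 2 and 1734 to 1810 bases in the other 3 libraries, which raises its TPM in that library relative to its counts.

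HSD17B8 (chromosome 6, 33204642 to 33206831), which oxidizes estradiol in vitro and forms a mitochondrial ketoacyl reductase with CBR4, had 32.9 and 23.0 TPM in wild-type libraries 1 and 2. It had 44.0 and 30.4 TPM in L755S libraries 1 and 2. Within each number HER2 L755S was the higher library, by 0.45 and 0.72 on the log2 scale, and the fitted log2 fold change was 0.57 (SE 0.34). Its groups did not overlap in CPM and overlapped in TPM. CBR4 stood at 20.4 to 25.2 TPM, with a log2 fold change of 0.20 (edgeR, Benjamini-Hochberg adjusted p = 0.99).

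HSD17B14 and HSD17B6 were oxidizing members of low level. HSD17B14 (chromosome 19, 48813017 to 48836678) had 6.44 and 3.71 TPM in wild-type libraries 1 and 2 and 8.28 and 3.85 TPM in L755S libraries 1 and 2. Its level followed the replicate number rather than the line in these 4 values. HSD17B6 (chromosome 12, 56752161 to 56787790), which also oxidizes androstanediols and overlaps the 5′ end of PRIM1 on the opposite strand (713 to 1276 counts), had 4.56 and 4.69 TPM in the wild-type and 2.04 and 3.70 TPM in the L755S libraries. These TPM groups did not overlap, and the change on log2(TPM + 0.1) was -0.73. In CPM the groups overlapped, with a fitted log2 fold change of -0.36 (SE 0.49), and of -1.0 for number 1 and 0.03 for number 2. Without HER2 L755S 1 the log2 fold change from counts was 0.12 for HSD17B6 and -0.20 for HSD17B14, against 0.23 for the latter in all 4 libraries.

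STS (chromosome X, 7219456 to 7354810), which frees estrone from its sulfate, had 2.71 and 3.20 TPM in wild-type libraries 1 and 2 and 6.36 and 3.34 TPM in L755S libraries 1 and 2. The groups did not overlap, though HER2 L755S 2 lay close to HER2 WT 2. STS had a log2 fold change of 0.85 (SE 0.36), made up of 1.27 for number 1 and 0.39 for number 2. Without HER2 L755S 1 it was 0.54. In CPM, 4 of the 8 tested members (HSD17B2, STS, HSD17B8 and HSD17B10) had no overlap between the lines, all with HER2 L755S higher. Of all tested genes 36.2% had no overlap in either direction and 16.9% with HER2 L755S higher. HSD17B2 is among the 4 because its values in this contrast chose the set, so nothing is read from the count. In TPM only HSD17B2 and STS had no overlap with HER2 L755S higher, and HSD17B6 had none with it lower.

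**Figure D2:**
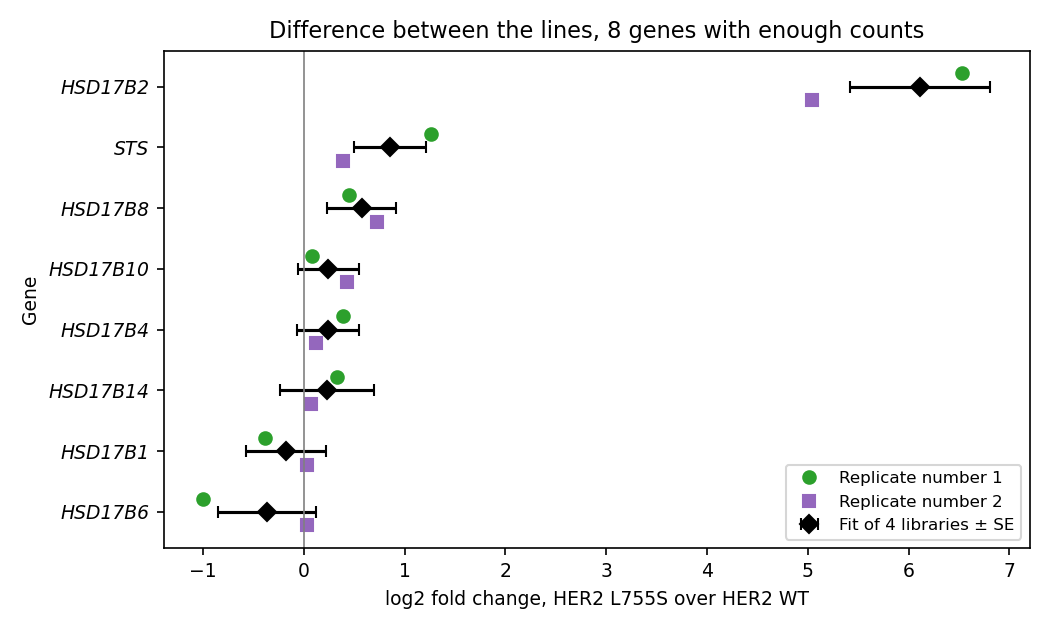
The log2 fold change of HER2 L755S over HER2 WT for the 8 members with enough counts to be fitted, as the fit of 4 libraries with its SE (diamonds) and as the difference within each replicate number (circles and squares). HSD17B2 stands at 6.12 and the other 7 between -0.36 and 0.85, and for HSD17B6 and HSD17B1 the 2 numbers fall on opposite sides of 0.

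HSD17B11 and HSD17B12 were close to undetected in both lines, and neither passed the filter on low counts. HSD17B12 (chromosome 11, 43680558 to 43856617) encodes the ketoacyl-CoA reductase of fatty acid elongation, which can also reduce estrone. It had 2 and 1 counts in wild-type libraries 1 and 2 and 1 and 0 counts in L755S libraries 1 and 2. HSD17B11 (chromosome 4, 87336610 to 87391386), a lipid droplet dehydrogenase of androstanediol, had 3 counts in HER2 L755S 1 and none in the other 3 libraries. A count of 0 allows a level of up to 3 counts, which is 0.0965 to 0.109 CPM on unscaled library totals. That limit holds for a count of 0 only, and the counts of 1 to 3 seen in some libraries allow a higher level. Neither gene had more than 3 counts in any library, so no fold is given. These limits cover counting error only.

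Most of the genes beside them were expressed in the same libraries. TTC17 and ALKBH3, which flank HSD17B12, had 1272 to 1559 and 222 to 329 counts. NUDT9, on 1 side of HSD17B11, had 1525 to 2145 counts, while HSD17B13 on its other side had 1 to 5. The steps around HSD17B12 in the elongation cycle were also expressed: HACD3, the dehydratase that follows it, stood at 137 to 194 TPM and TECR, the last reductase, at 213 to 306 TPM. The near-absence of HSD17B12 and HSD17B11 was shared by both lines. Whether these low counts reflect the cells or the gene models behind the tables was not tested.

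RefSeq promoter windows (GRCh38.p14) were found for 5 of the 10 members, HSD17B4, HSD17B8, HSD17B10, HSD17B11 and STS. The 250 bases before the start of HSD17B11, a gene close to undetected here, and of HSD17B4, the second most abundant member, are shown because their base composition is alike while their levels are not. The first lies at chr4:87391189-87391438 on the minus strand and the second at chr5:119452247-119452496 on the plus strand. The RefSeq start of each gene lies inside the GENCODE gene bounds given above. Most of the HSD17B11 window and a smaller part of the HSD17B4 window therefore lie inside those bounds too, so the 2 windows are not alike in place. Both are written 5′ to 3′ with each CG dinucleotide in capitals.
HSD17B11: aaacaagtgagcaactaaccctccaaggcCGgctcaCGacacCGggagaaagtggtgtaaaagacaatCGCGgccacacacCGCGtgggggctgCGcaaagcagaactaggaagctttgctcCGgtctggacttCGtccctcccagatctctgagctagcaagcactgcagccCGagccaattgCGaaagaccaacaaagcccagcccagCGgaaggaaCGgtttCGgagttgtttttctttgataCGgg
HSD17B4: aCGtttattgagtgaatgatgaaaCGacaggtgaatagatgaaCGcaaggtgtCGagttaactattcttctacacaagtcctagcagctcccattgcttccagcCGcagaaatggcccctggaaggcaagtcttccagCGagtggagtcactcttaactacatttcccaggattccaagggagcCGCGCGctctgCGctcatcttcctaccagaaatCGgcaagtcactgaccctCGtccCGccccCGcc
The HSD17B11 window holds 16 CG dinucleotides and has a GC content of 56.0%, and that of HSD17B4 holds 14 with a GC content of 52.8%. The median over 35116 such windows was 11. HSD17B8 held 14 and HSD17B10 held 21 in each of its 2 windows. The 5 windows of STS, which has several annotated starts, held 1 to 15. Methylation and chromatin were not measured, so these counts describe the sequence only.

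Between the replicate numbers, a contrast that did not choose the genes, HSD17B2 was the 1 member that differed. With the line as a term in the fit, HSD17B2 was lower in the number 2 libraries by a log2 fold change of -1.71 (SE 0.30, edgeR's quasi-likelihood test, Benjamini-Hochberg adjusted p = 0.0025, and 0.65 without the line term). The log2 difference of number 2 from number 1 was -2.04 for L755S cells (452 against 2126 counts). For wild-type cells it was -0.56, from only 15 against 25 counts, too few to show that the difference recurs in both lines. With 1 library for each line and number, a test of whether these 2 differences are unequal has no residual degrees of freedom and was not made. The number 2 libraries also had the higher mitochondrial share, whose part in this difference was not tested. For the other 7 tested members the adjusted p was 0.19 to 0.96. Of all tested genes 18.2% were called between the numbers, 8.26% higher and 9.94% lower in number 2, so 1 of 8 members is not above the background. The level of HSD17B2 in HER2 L755S cells is thus known only within the wide range of its 2 libraries.

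Of the 73 other symbols listed for estrogen and linked metabolism, matched to 74 gene identifiers, 40 had enough counts to be tested. One, AKR1C1, was higher and another, ELOVL2, was lower in HER2 L755S cells, where 0.738% of all tested genes were called higher and 0.949% lower. The median log2 fold change of the 40 genes was 0.21, against 0.00 over all tested genes. Genes of de novo estrogen synthesis were near or at 0. CYP19A1, the aromatase gene, had 15 and 2 counts in wild-type libraries 1 and 2 and 1 and 6 counts in L755S libraries 1 and 2. HSD3B1 and CYP11A1 had no counts.

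AKR1C1 and AKR1C2 belong to the aldo-keto reductases, an enzyme family apart from the dehydrogenases above, and were listed with AKR1C3, its 17-ketosteroid reductase. AKR1C1 is best known for inactivating progesterone and AKR1C2 for reducing dihydrotestosterone, so neither mainly acts on estrone. AKR1C1 stood at 3.55 and 3.0 CPM in wild-type libraries 1 and 2 and at 30.6 and 15.6 CPM in L755S libraries 1 and 2. Both HER2 L755S libraries were well above both HER2 WT libraries. AKR1C1 had a log2 fold change of 2.82 (SE 0.43, adjusted p = 0.0077 by edgeR and Benjamini-Hochberg), 3.10 within number 1 and 2.37 within number 2. It kept its call under all 13 alternatives (adjusted p from 2.2e-08 to 0.029).

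AKR1C2 stood at 1.70 and 0.482 CPM in wild-type libraries 1 and 2 and at 13.2 and 3.47 CPM in L755S libraries 1 and 2. Its log2 fold change was 2.92 (SE 0.71), 2.94 within number 1 and 2.80 within number 2, and missed the threshold (edgeR, adjusted p = 0.072). With HER2 L755S 1 left out, AKR1C2 had a change of 1.66 on the log2 scale (edgeR, adjusted p = 0.17). It passed under 6 of 13 alternatives, among them without HER2 WT 1 (9.6e-06), without HER2 WT 2 (0.018) and without HER2 L755S 2 (6e-07), in a range up to 0.23. AKR1C2 was also lower in the number 2 libraries (log2 -1.88, SE 0.34, adjusted p = 0.0032 by edgeR). AKR1C3, which reduces estrone and androstenedione, is listed under 2 identifiers in the tables. Their log2 fold changes were 0.72 and 0.94 (edgeR, adjusted p = 0.88 and 0.71), and their summed level was 2.23 and 3.0 TPM in the wild-type and 3.39 and 5.00 TPM in the L755S libraries. Expected counts of these AKR1C genes were not whole in any library, so reads shared among these paralogs were divided between them and their single values are uncertain.

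Among the other enzymes of the 17-keto group, HSD17B7, which reduces estrone and acts in cholesterol synthesis, stood at 27.6 and 20.6 TPM in the wild-type and 23.5 and 14.7 TPM in the L755S libraries (log2 -0.09, edgeR, adjusted p = 0.998). This level was above that of HSD17B1 in each library. HSD17B3, the testosterone-forming reductase, had 1.66 and 2.75 TPM in the wild-type and 0.67 and 0.68 TPM in the L755S libraries (log2 -1.25, SE 0.60, adjusted p = 0.51). DHRS11, a ketosteroid reductase, did not pass between the lines (log2 0.32, adjusted p = 0.96) and was lower in the number 2 libraries (log2 -0.64, SE 0.20, edgeR, adjusted p = 0.039, and 0.096 in DESeq2).

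On the side of estrogen sulfate, 0 of 7 tested genes of sulfation and sulfatase activation passed between the lines in edgeR or in DESeq2, and 0 did at an unadjusted p under 0.05. SULT1E1, the high-affinity estrogen sulfotransferase, had 4 counts in HER2 WT 2 and none in the other 3 libraries. SULT1A1, a phenol sulfotransferase of lower affinity for estrogens, stood at 31.8 and 21.4 TPM in the wild-type and 26.3 and 13.7 TPM in the L755S libraries (log2 -0.35, SE 0.37, edgeR, adjusted p = 0.95). It was lower in the number 2 libraries (log2 -0.58, SE 0.19, edgeR, adjusted p = 0.047, and 0.097 in DESeq2). PAPSS1, which makes the sulfate donor, and SUMF1, which activates sulfatases such as STS, had log2 fold changes of -0.01 and -0.12 (edgeR, adjusted p = 0.999 and 0.998). Of 8 transporters listed for uptake of steroid sulfates, SLCO3A1 and SLCO4A1 had enough counts to be tested, and SLCO3A1, the more abundant, stood at 1.51 to 4.12 TPM.

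CYP1B1, an estrogen hydroxylase, stood at 86.8 to 112 TPM (log2 0.20). Of 13 genes for glucuronidation 8 had no count in any library, and GUSB, the glucuronidase that reverses the reaction, was the 1 gene tested (log2 0.42, adjusted p = 0.86). SRD5A3, the most abundant gene of the synthesis list, had a log2 fold change of 0.45 and SRD5A1, the steroid reductase, one of -0.83 (SE 0.33, edgeR, adjusted p = 0.35). HSD3B7, of bile acid synthesis, was lower in the number 2 libraries (log2 -0.68, edgeR, adjusted p = 0.023).

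The 2 mitochondrial RNase P partners of HSD17B10, TRMT10C and KIAA0391, had log2 fold changes of 0.44 and 0.30 (edgeR, adjusted p = 0.88 and 0.95). Of 10 tested genes of fatty acid elongation, the cycle that HSD17B12 serves, ELOVL2 fell. This elongase of long polyunsaturated fatty acids went from 51.2 and 67.2 CPM in wild-type libraries 1 and 2 to 15.8 and 18.4 CPM in L755S libraries 1 and 2 (log2 -1.79, SE 0.34, edgeR, adjusted p = 0.026, and 0.061 without HER2 L755S 1). ELOVL6, which elongates palmitate, had a log2 fold change of 1.09 between the lines (adjusted p = 0.22). It was higher in the number 2 libraries (log2 0.59, adjusted p = 0.042), as was the dehydratase gene HACD2 (log2 0.62, adjusted p = 0.030).

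**Figure D3:**
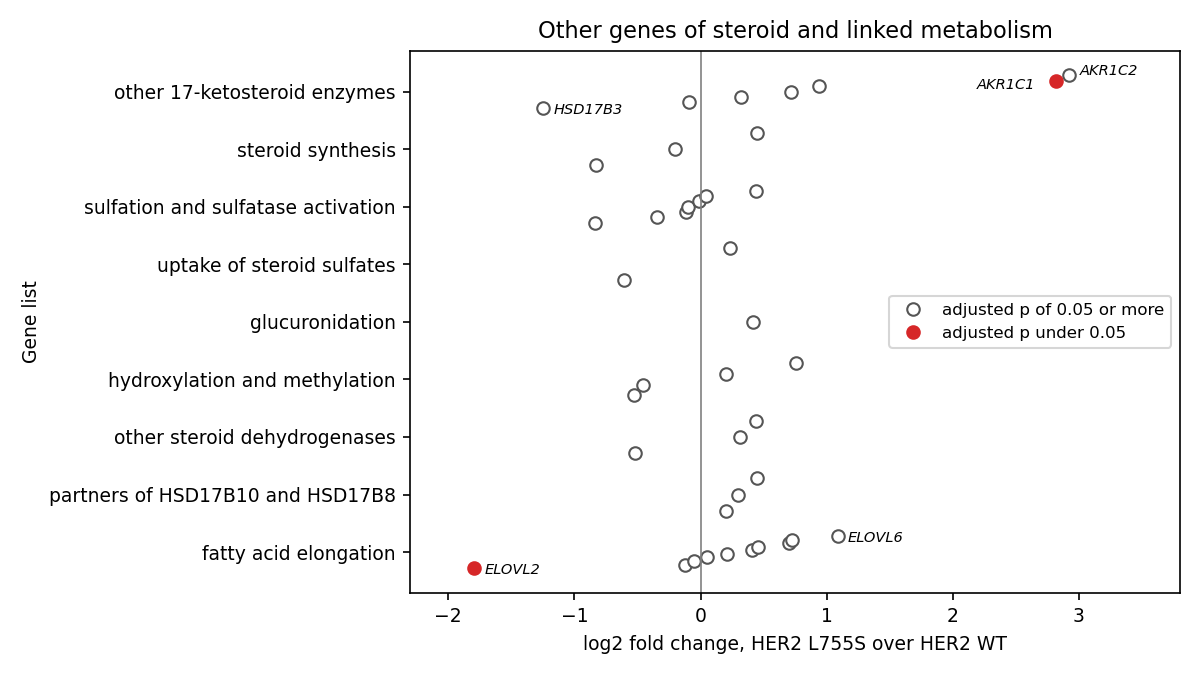
The log2 fold change of HER2 L755S over HER2 WT for the 40 tested genes of steroid and linked metabolism outside the 10 members, 1 row per gene list and 1 point per gene, with genes past an adjusted p of 0.05 filled. AKR1C1 at 2.82 and ELOVL2 at -1.79 are the filled points, and AKR1C2 at 2.92 lies beside AKR1C1 unfilled.

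In the stretch of chromosome 16 around HSD17B2 no other tested gene was called by edgeR without a replicate term. Among 45 other tested protein-coding genes that start within 5 Mb of it, a window set after its values were seen, 0 passed in edgeR, 3 were higher and 2 lower at an unadjusted p under 0.05, and 2 were higher after adjustment in DESeq2. The median log2 fold change was -0.02. The nearest genes were SDR42E1, a dehydrogenase relative, with 0.23 from counts (edgeR, adjusted p = 0.98) and -0.048 on log2(TPM + 1), and MPHOSPH6, a cofactor of the RNA exosome, with 1.08. MPHOSPH6 stood at 29.7 and 36.7 CPM in wild-type libraries 1 and 2 and at 65.8 and 74.8 CPM in L755S libraries 1 and 2 (SE 0.32, and 1.15 and 1.03 within numbers 1 and 2). The groups were well apart, yet its adjusted p was 0.15 in edgeR and 0.039 in DESeq2. PLCG2, a phospholipase gene on the other side, had 0.432 and 0.723 CPM in the wild-type and 2.39 and 1.75 CPM in the L755S libraries (log2 1.84, SE 0.57, edgeR, adjusted p = 0.17). It had only 14 to 70 counts, and its change was 0.50 on log2(TPM + 0.1) and 0.21 on log2(TPM + 1). Over all 10 members, 59 of the 60 flanking genes were measured, 42 were tested and 1 was called. This was LRRC4C, the outermost of the 3 taken on 1 side of HSD17B12 (log2 2.33, edgeR, adjusted p = 0.028). Of all tested genes 1.69% were called in either direction, so nothing is read from 1 call among 42.

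**Figure D4:**
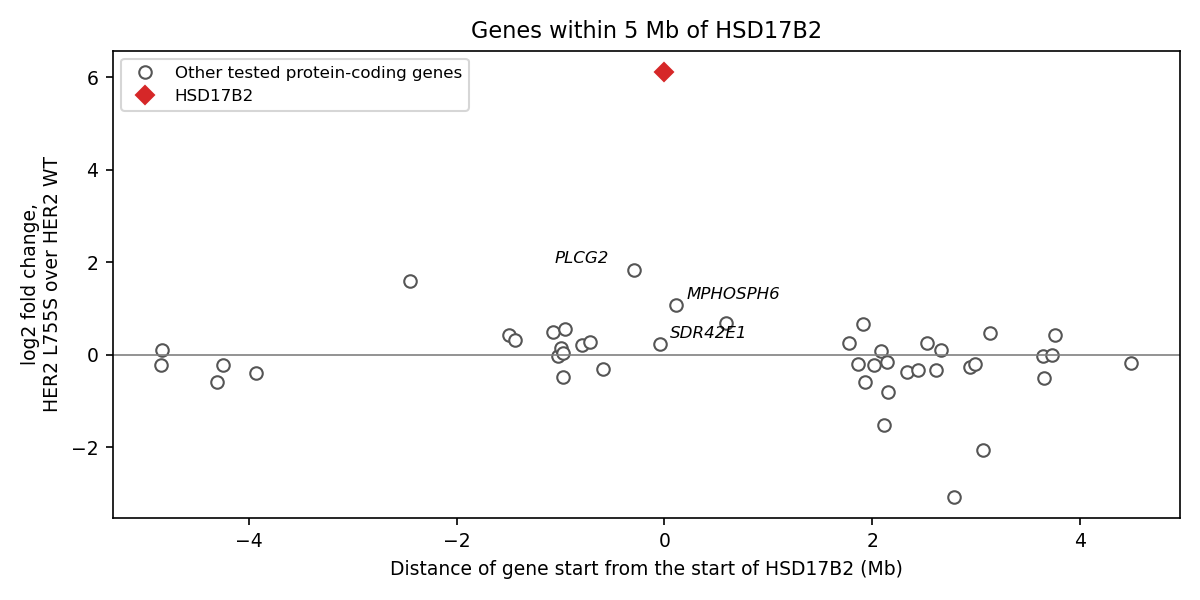
The log2 fold change of HER2 L755S over HER2 WT against the distance of each gene's start from that of HSD17B2, for HSD17B2 (diamond) and 45 other tested protein-coding genes (circles). HSD17B2 lies at 6.12, and the others run from -3.06 to 1.84.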

How the data were processed

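RNA was sequenced from 4 libraries of MM134 cells, with poly(A) selection and 250 ng RNA as input, per the labels' protocols. Each deposited gene table is RSEM output per the file headers. It holds expected counts, which are estimated counts made by the authors, and TPM and FPKM values that the authors derived from the same estimates. FPKM was not used here. STAR, edgeR and GRCh38 appear in the submitters' processing notes. Neither strand setting nor annotation release is given in the sources used here, nor what was merged in the number 2 tables, which carry that word. Deposited lengths are means over transcripts weighted by estimated abundance.

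Expected counts were rounded, and 16538 of 60675 genes passed filterByExpr. For the lines, edgeR 4.0.16 (R 4.3.3) ran its quasi-likelihood test (TMM, two-sided, Benjamini-Hochberg over all tested genes, threshold 0.05) without a replicate term. The numbers were compared with the line as a term. Each SE given with a log2 fold change was derived from the test, as the absolute log2 fold change over the square root of F. Differences within a number are of log2 CPM (prior count 0.5). The fits were tested on simulated data. Alternatives were DESeq2 1.42.0 and its size factors, limma 3.58.1 on counts or log2 TPM, no scaling, other filters, the replicate number as a block, and each library left out.

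The genes, lists and tests were chosen with earlier results of these data known. The text names every member, ERBB2, ESR1, each listed gene called in either comparison or else the most abundant tested one of its list, 3 protein-coding neighbours on each side of a member where a result turns on them, and 5 genes with a profile like that of HSD17B2. Others (CBR4, HACD3, TECR, CYP19A1, HSD3B1, CYP11A1, AKR1C3, HSD17B3, HSD17B7, SULT1E1, PAPSS1, SUMF1, SLCO4A1, CYP1B1, SRD5A1, TRMT10C, COL1A1, COL1A2, COL3A1 and THY1) were named after their values were seen. One gene of the lists is not reported here. Positions are from GENCODE 29 on GRCh38.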

Additional observations from a re-analysis of the deposited data

How the results depend on the processing

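The higher and lower calls between the lines, 122 and 157, became 276 and 309 with DESeq2 and 328 and 431 with no filter. With the replicate number as a block they became 725 and 1018. The higher calls were 79 and 63 with limma-trend on log2(TPM + 0.1) and log2(TPM + 1). Leaving out 1 library, so that its line's spread was taken from the other, gave 165 to 219 higher and 177 to 338 lower genes. Called genes of the pathway lists, 1 higher and 1 lower, became 2 higher with DESeq2 or no filter, 4 higher (AKR1C1, AKR1C2 and ELOVL6 among them) and 2 lower (ELOVL2 and SRD5A1) with the replicate block, and 0 lower with log2(TPM + 1) in limma (2 lower at an unadjusted p under 0.05). Leaving out 1 library gave 1 to 2 higher and 0 to 1 lower (1 lower at an unadjusted p under 0.05 in edgeR without HER2 L755S 1). Deviations of same-numbered libraries from their line's mean correlated at 0.42 across 16538 genes, and with 2 numbers whose meaning is not stated they were not treated as pairs. Next to HSD17B2, MPHOSPH6 (0.00088) and PLCG2 (0.028) passed with the replicate block. Between the numbers, edgeR without a term for the line called 0 higher and 0 lower genes (1329 and 1467 at an unadjusted p under 0.05), and HSD17B2 then had an adjusted p of 0.65. DESeq2 with the term called 1070 and 1105.

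The log2 fold change of HSD17B2 between the lines ran from 4.37 with log2(TPM + 1) to 6.79 without HER2 L755S 2. Signs turned without HER2 L755S 1 for HSD17B6 (0.12, in a range of -1.11 to 0.12 with 1 library left out) and HSD17B14 (-0.20, range -0.20 to 0.54). They also turned for SDR42E1 with both TPM settings (-0.060 and -0.048) and without HER2 WT 1 (-0.0088, range -0.0088 to 0.53), and for HSBP1, a neighbour of HSD17B2, without HER2 L755S 2 (-0.020, range -0.020 to 0.47). The cause was not tested. Of 273 gene values under alternatives, 246 kept their direction and call or moved by less than the replicate spread. For HSD17B11 and HSD17B12 the counts were too few for a fold.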

Other observations

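Among 11772 other tested genes of at least 5 CPM in the higher line, the 5 whose profile over the 4 libraries lay nearest to that of HSD17B2 were ABCA12, CDSN, CLCA2, ROBO2 and DACH1. Likeness was the Euclidean distance of log2 CPM centred on each gene's mean, and with 4 libraries it is a description only. ABCA12, a lipid transporter of the epidermis, lay nearest at a distance of 0.866, with 0.649 and 0.758 CPM in wild-type libraries 1 and 2 and 51.0 and 12.2 CPM in L755S libraries 1 and 2. Like HSD17B2 it was higher in HER2 L755S 1 than in HER2 L755S 2. CDSN (corneodesmosin, of the cornified skin layer) followed at 1.24, with 13.8 and 4.2 CPM against 394 and 189 CPM. CLCA2 lay at 1.66 and stood at 23.2 and 23.8 CPM in the HER2 L755S libraries, so it did not share the difference between the numbers. The guidance receptor gene ROBO2 and the transcription factor gene DACH1 lay at 2.01 and 2.23.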
